A study of Mus musculus with 4 samples.

Results

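Type IA spiral ganglion neurons are 1 of the subtypes of primary auditory neuron in the deposited annotation, and they were taken here as every cell whose subtype label is Type IA. The label was carried by 2384 of 6713 annotated cells, with 427 cells in mouse 1, 827 in mouse 2, 605 in mouse 3 and 525 in mouse 4. The study captured single cells with the 10x Genomics droplet platform (v2 chemistry) from the cochleas of 4 wild-type male CBA/CaJ mice aged 9 weeks (8 cochlear capsules, both capsules of a mouse pooled). The dissected tissue held the spiral ganglion and neighbouring limbus and sulcus, with some of the organ of Corti. It was digested in collagenase IV and then papain, each for 30 min at 37 °C, and 2.5 h passed between death and capture. There was no treatment and no second genotype, so the mice are replicates of 1 condition, and nothing used here states how the authors assigned the subtype labels.

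Type I neurons carry the signal of inner hair cells to the brain, each through a large myelinated axon and a glutamatergic synapse on a single hair cell. They differ in spontaneous firing and threshold, and subtypes IA, IB and IC are told apart by graded genes, with the calcium-binding protein calretinin (Calb2) highest in type IA. Calretinin buffers calcium through EF-hand domains, the enzyme encoded by B3gat1 makes the HNK-1 carbohydrate, Pcdh20 encodes a protocadherin, and Rxrg encodes the retinoid X receptor gamma.

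Counts of unique molecular identifiers (UMIs), each 1 captured RNA molecule, were summed over the type IA cells of each mouse. Levels are given as CPM, a gene's UMIs per 1000000 UMIs of those cells, as mean ± SD over 4 mice. UMIs come from the 3′ ends of transcripts and count molecules, so levels of different genes were compared without division by length. The type IA cells held 29830361 UMIs, with a median per cell of 16762, 12970, 14303 and 8628 UMIs in mice 1 to 4. The paired difference in median UMIs per cell was -1375 ± 972 against type IB and -2637 ± 1313 against type IC (mean ± SD). Type IA was lower in 4 of 4 mice both times, which gives the smallest p an exact sign-flip test of 4 mice allows and does not reach 0.05. The median share of mitochondrially encoded UMIs per cell was 10.3% ± 0.758, beside 8.95% ± 0.519 for type IB and 7.15% ± 0.287 for type IC. Of all cell barcodes 26 occurred in more than 1 library, 3 of them among type IA cells. No doublet caller was run and the labels name none. One type IA cell exceeded 3 times its mouse's median UMI count, and 14 type IA cells held at least 3 UMIs of the satellite glia gene Fabp7.

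The 5 marker genes bore out the label in all 4 mice. Calb2 (chr8:110137502-110168210, minus strand, mm10) stood at 10315, 9262, 10826 and 9060 CPM in mice 1 to 4, a mean of 9866 ± 844, beside 2458 ± 287 in type IB and 719 ± 116 in type IC. The other markers were far less abundant. B3gat1 (chr9:26733728-26763101, plus strand) stood at 234, 216, 259 and 261 CPM, beside means of 30.5 in type IB and 12.7 in type IC. Pcdh20 (chr14:88464743-88471396, minus strand) stood at 86.2, 77.3, 73.0 and 106 CPM, beside 16.3 and 5.72. Rxrg (chr1:167598384-167639623, plus strand) stood at 60.0, 49.0, 61.4 and 48.7 CPM, beside 14.1 and 4.59. For each of these genes every mouse's type IA value lay above the type IB and type IC means. Tmem132c (chr5:127241808-127565793, plus strand), which encodes a transmembrane protein, stood at 43.3, 37.2, 35.9 and 40.8 CPM, beside 2.33 and 1.94. The labels were made from these same cells, so these contrasts are descriptions and were not tested.

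To compare detection, each cell was thinned at random to 4000 UMIs, which left out 183 type IA, 85 type IB and 116 type IC cells with fewer. Calb2 had a UMI in 100% of the type IA cells of every mouse, and also in 99.6% of type IB and 90.3% of type IC cells. B3gat1 had a UMI in 61.9% ± 3.52 of type IA cells, beside 11.2% in type IB and 5.17% in type IC. The rarer markers were seen in a minority of type IA cells, with shares of 28.6% ± 3.69 for Pcdh20, 19.4% ± 0.929 for Rxrg and 15.6% ± 1.52 for Tmem132c. In type IB the shares were 6.78% for Pcdh20, 5.92% for Rxrg and 0.799% for Tmem132c, and in type IC they were 2.68%, 1.53% and 0.745%.

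At this depth most type IA cells showed only some of the markers. A UMI of exactly 2 of the 5 markers was found in 44.8% ± 1.06 of type IA cells, of exactly 3 in 29.9% ± 2.95, and of all 5 in 0.581% ± 0.268. Calb2 alone was seen in the 18.6% ± 3.81 of type IA cells with 1 marker. In type IB 76.8% ± 2.01 and in type IC 82.9% ± 2.10 of cells had exactly 1 marker.

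**Figure D1:**
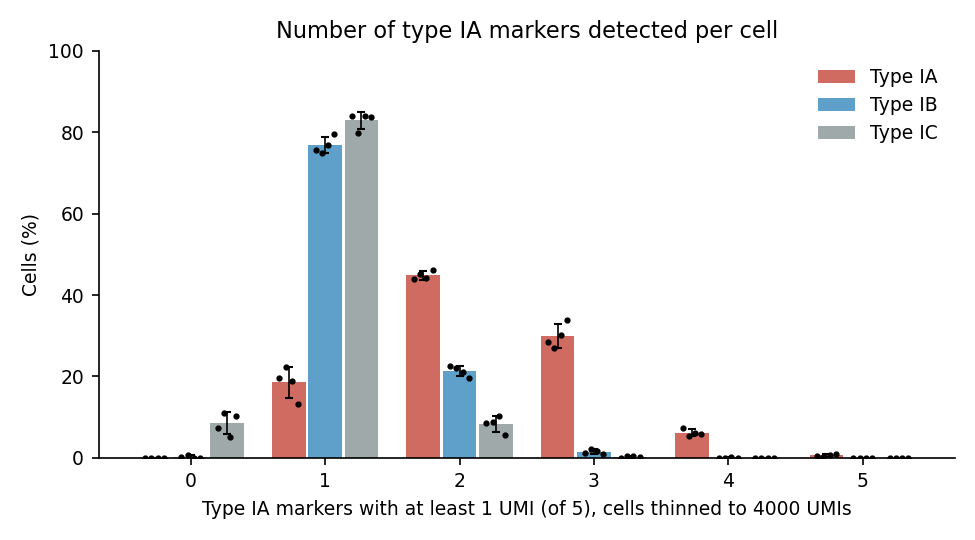
Share of cells (%) by the number of the 5 type IA markers with at least 1 UMI after thinning to 4000 UMIs, for types IA, IB and IC; bars are means, error bars SDs and points the 4 mice. Type IA cells peak at 2 markers (44.8%), while types IB and IC peak at 1.

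Calb2 itself varied over a wide range between type IA cells. The median was 38, 36, 41 and 34 thinned UMIs in mice 1 to 4, and single cells ran from 1 to 112. The 10th percentile was 20, 19, 23 and 17 UMIs. The range of type IA overlapped widely with that of type IB: 31.7%, 54.2%, 56.3% and 10.4% of the type IA cells of mice 1 to 4 lay above the highest type IB cell of the same mouse. At least 84.7% of the type IA cells of each mouse lay above its highest type IC cell. The bulk of the cells overlapped less: 6.82% ± 1.25 of type IA cells lay at or below the 90th percentile of type IB, and 0.863% ± 0.465 at or below that of type IC.

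**Figure D2:**
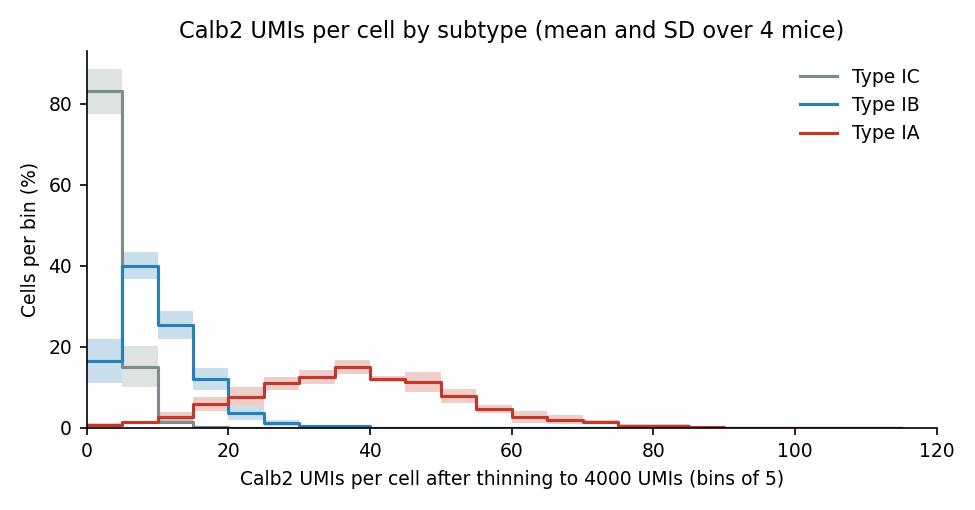
Share of cells (%) in bins of 5 Calb2 UMIs per cell after thinning to 4000 UMIs, for types IA, IB and IC; lines are means and shading SDs over 4 mice. Type IA cells centre near 38 UMIs and reach down into the range of type IB.

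Markers of types IB and IC were low beside the subtypes they mark. The 4 type IB markers summed to 12.3 CPM in type IA and 159 in type IB. The 5 type IC markers summed to 134 CPM, beside 3307 in type IC, and Lypd1, whose product modulates nicotinic receptors, made up most of this. Lypd1 stood at 110 ± 22.5 CPM in type IA and had a UMI in 31.1% of its thinned cells. That share was above those of Pcdh20, Rxrg and Tmem132c, and in the type IB mice it ran from 35.7% to 42.4%. Pou4f1, a transcription factor of sensory neurons, stood at 8.03 ± 0.521 CPM, beside 167 in type IC. The 6 type II markers summed to 53.2 CPM, above the 39.9 of type IB and 38.6 of type IC. Gata3, a transcription factor of developing auditory neurons, made up 48.7 ± 3.01 CPM of this, beside 36.5 in type IB, 34.3 in type IC and 324 in type II. Prph, which encodes the intermediate filament peripherin, stood at 1.03 ± 0.627 CPM, beside 475 in type II. All 7 general spiral ganglion neuron markers were above 100 CPM, and the 6 hair cell markers measured summed to 2.27 CPM, each of them below 1 CPM. Satellite glia and Schwann cell markers summed to 4100 CPM, and to 4542 in type IB and 4528 in type IC.

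Over all type IA cells 17648 of the 18143 genes in the files had at least 1 UMI, a count that in droplet data includes free RNA of other cells, and 1764 genes stood at or above 100 CPM. The 10 most abundant genes held 14.0% and the first 100 held 30.4% of the UMIs. Mitochondrially encoded genes took 10.6% and ribosomal protein genes 5.02%. Leaving these families out, the most abundant RNA was the nuclear noncoding RNA Malat1 (17246 ± 1786 CPM), followed by Fth1, the heavy chain of the iron store ferritin (10567 ± 532 CPM). Calb2 came next. Spp1, which encodes the secreted phosphoprotein osteopontin, stood at 7157, 5838, 7294 and 6339 CPM, beside means of 5505 in type IB and 5166 in type IC. The noncoding RNA Meg3 stood at 2944 ± 240 CPM.

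Among calcium-binding genes Calb2 was the most abundant. Calm2, 1 of the 3 calmodulin genes, stood at 3760 ± 162 CPM, beside 4735 in type IB and 5659 in type IC. Parvalbumin (Pvalb), a fast calcium buffer found in all spiral ganglion neurons, stood at 3158, 3311, 2973 and 2699 CPM, beside 3474 in type IB and 3891 in type IC. Calbindin (Calb1) was rare, at 5.52 ± 1.30 CPM with 66.6 in type IB. Together the 25 calcium-binding genes summed to 23274 CPM, against 17758 in type IB and 17858 in type IC, and Calb2 alone was 9866 CPM of it. Without Calb2 the list summed to less in type IA than in types IB and IC.

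Genes of the axonal cytoskeleton were abundant. The 32 genes of the axonal cytoskeleton and transport list summed to 18167 ± 952 CPM in type IA, beside 17489 in type IB and 18053 in type IC, so the list as a whole hardly differed. The neurofilament light chain Nefl stood at 2540, 2599, 2465 and 2315 CPM, beside 1869 in type IB and 1844 in type IC. Nefh, the heavy chain, stood at 2117 ± 148 CPM, beside 1898 and 1891, and Nefm, the medium chain, at 1438 ± 86.8 CPM, beside 997 and 1005. Each type IA mouse value of Nefl lay above both means of that gene in the other subtypes. Ank2, an ankyrin that anchors membrane proteins to the axonal skeleton, stood at 1610 ± 210 CPM, beside 1214 and 1050. The sodium pump subunit Atp1b1 stood at 2635 ± 147 CPM.

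Among ion channels, the two-pore potassium channel Kcnk1 stood at 476 ± 39.5 CPM, the Kv3 gene Kcnc1 at 396 ± 43.5 and the Kv1 gene Kcna2 at 292 ± 31.6. Kv3 channels repolarise the membrane quickly, and Kv1 channels oppose repetitive firing. The sodium channel of the node, Scn8a, stood at 232 ± 26.5 CPM and the subunit Scn4b at 344 ± 29.5. Calcium channel genes were lower, with Cacnb3 and Cacnb4 at 145 ± 11.9 and 134 ± 12.0 CPM and the pore Cacna1a at 56.9 ± 6.52.

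Synaptic genes covered both ends of the neuron. Snap25, a SNARE protein of vesicle release, stood at 4122 ± 124 CPM, and Cplx1, a complexin that clamps and promotes fusion, at 1170 ± 78.3. The vesicular glutamate transporter Slc17a7 stood at 467 ± 31.0 CPM, and Slc17a8, the transporter of hair cells, at 0.660 ± 0.499. The AMPA receptor subunits Gria3, Gria2 and Gria4, which receive glutamate from the hair cell, stood at 128 ± 13.2, 123 ± 17.4 and 68.3 ± 8.39 CPM, and the NMDA receptor subunit Grin1 at 134 ± 11.3. The neurotrophin receptors Ntrk3 and Ntrk2 stood at 131 ± 4.72 and 118 ± 1.38 CPM, and the p75 receptor Ngfr at 136 ± 8.18, beside 78.3 in type IC.

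Variation between cells was measured on thinned UMIs as the excess squared coefficient of variation, which is the variance above Poisson sampling divided by the squared mean. A value of 0 means that counting alone accounts for the spread. Over the 1371 genes with a mean of at least 0.5 thinned UMIs, the median was 0.0616, the 90th percentile 0.160 and the 99th 0.498, and 115 genes fell below 0. Calb2 stood at 0.123 ± 0.0211 and Spp1 at 0.0995 ± 0.0231. The abundant Malat1 reached 0.353 ± 0.0374.

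The highest values belonged to hemoglobin genes and a fibrocyte gene. Hba-a1, a hemoglobin gene of red blood cells, stood at 15.5 ± 14.1, with 20.2, 32.8, 9.06 and 0.0562 in mice 1 to 4. A single cell held 6.45% of its type IA UMIs, and the SD over mice was close to the mean. Otos, a gene of limbus and lateral wall fibrocytes, stood at 6.43 ± 10.5 and reached 22.1 in mouse 2. Hbb-bs, another hemoglobin gene, stood at 4.91 ± 4.00.

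Of the remaining genes Actb, which encodes cytoplasmic actin, was highest, at 1.07, 1.34, 1.28 and 1.06. The heterochromatin protein gene Cbx3 stood at 0.889 ± 0.0711. Micu3, a regulator of mitochondrial calcium uptake, stood at 0.601 ± 0.194, and Lrrc8a, a subunit of the volume-regulated anion channel, at 0.578 ± 0.122. In types IB and IC Actb stood at 1.11 and 1.01 and Cbx3 at 0.852 and 0.915, while the other genes of this paragraph are given for type IA only. Gadd45g, induced by stress, stood at 0.887 ± 0.300, the heat shock gene Hspa1a at 0.718 ± 0.285 and the immediate early gene Fos at 0.496 ± 0.239. Fos had a UMI in 78.1% ± 3.11 of thinned type IA cells.

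Faim2, an inhibitor of Fas-mediated cell death in neurons, had an excess of 0.868, 0.524, 0.0824 and 0.488 in the 4 mice, beside means of 0.138 in type IB and 0.0729 in type IC. The value of mouse 3 lay between the means of the other subtypes, and the difference was not tested. Its level stood at 134 ± 26.5 CPM in type IA, beside 318 and 458. Paxbp1, which encodes a PAX-binding protein, stood at 290 ± 29.3 CPM in type IA against 125 and 107, with an excess of 0.438 ± 0.199.

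The least variable abundant genes lay near counting error. Bsg, which encodes the lactate transporter partner basigin, stood at 0.00208 ± 0.0290 with a level of 558 ± 16.3 CPM. Hmgb1, a chromatin protein, stood at 0.00920 ± 0.0624, Klc1, a kinesin light chain, at 0.0238 ± 0.0164, and Calm3 at 0.0294 ± 0.0190. Klc1 and Hmgb1 were also even between mice, with a ratio of highest to lowest mouse of 1.05 for each.

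**Figure D3:**
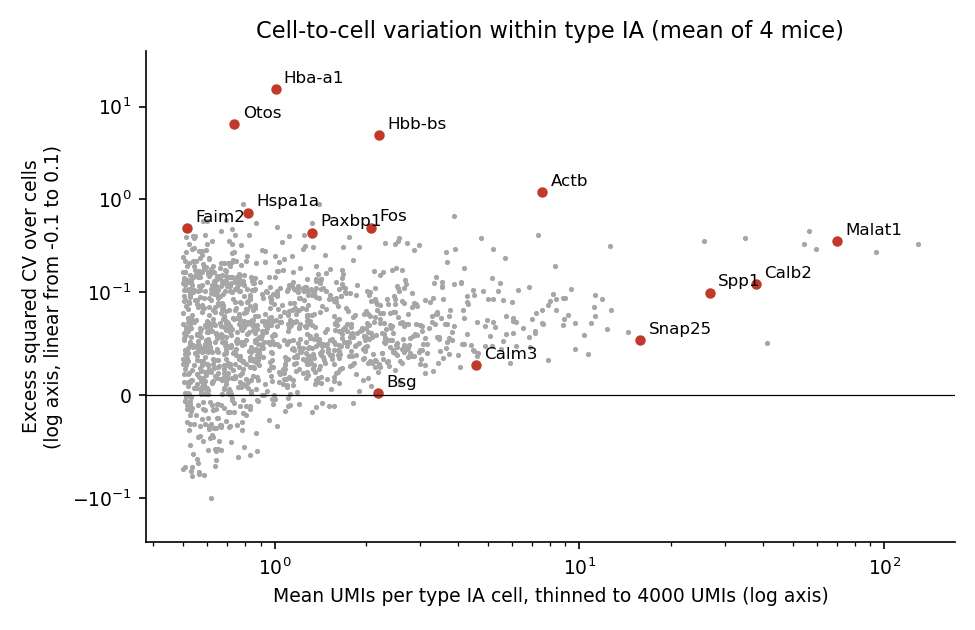
Excess squared coefficient of variation over type IA cells against mean UMIs per cell (thinned to 4000 UMIs, log axes, the vertical axis linear between -0.1 and 0.1); points are 1371 genes, means of 4 mice, and named genes are red. Hemoglobin genes and Otos lie above 4, Actb at 1.19, Calb2 at 0.123 and Bsg near 0.

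Between mice, type IA levels were steady for most genes: over the 6502 genes at or above 20 CPM the median SD of log2 CPM was 0.105. The 10 most uneven genes were neutrophil, erythroid, interferon-induced, bone and airway genes. S100a8, a neutrophil calcium-binding protein, stood at 17.8, 9.65, 7.16 and 229 CPM, and Bglap, which encodes osteocalcin of bone, at 1.16, 1.67, 0 and 115 CPM. Mouse 4 was alone high for both, and also for S100a9, Camp and Ngp of neutrophils. Isg15, induced by interferon, stood at 66.4, 12.2, 7.41 and 11.2 CPM, so that mouse 1 was alone high. Bpifa1, a secreted protein of airway epithelium, stood at 113, 49.7, 0 and 127 CPM. These genes had like means in the other subtypes, such as 66.0 CPM of S100a8 for type IA beside 88.5 for type IB and 75.2 for type IC.

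The wide range of Calb2 was used to ask what else varied along it inside type IA. In each mouse the type IA cells with at least 4000 UMIs were split at the median of thinned Calb2 UMIs into calretinin-high and calretinin-low cells, 1099 of each in all. The UMIs of each set were summed per mouse and compared by edgeR's quasi-likelihood test, with Calb2 left out and each mouse entered as a block. Calb2 stood at 12241 ± 668 CPM in the high cells and 7130 ± 909 in the low cells. In each mouse 29.9% to 33.7% of cells lay within 5 UMIs of the dividing value. Technical measures moved with the split. Median UMIs per cell were 19573, 13901, 15846 and 11357 in the high cells of mice 1 to 4 and 10869, 12766, 11551 and 7656 in the low cells. The mitochondrial share was 8.89% ± 0.321 in high and 11.9% ± 1.82 in low cells, and glial markers summed to 3976 ± 169 and 4299 ± 124 CPM. Counts of genes on the split are therefore given beside a second comparison, added after the data were seen, in which high and low cells were matched on depth and mitochondrial share within each mouse. A single-gene difference given without a matched value is for all cells only. Of the named genes called in all cells and tested in matched cells, 80 kept their call there, 37 kept their direction without passing and 7 reversed.

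Of 11416 genes tested, 1437 (12.6%) were higher and 1180 (10.3%) lower in calretinin-high cells at an adjusted p under 0.05 (edgeR, Benjamini-Hochberg over all genes), and 26 differed by at least 2-fold. The median log2 difference over all genes was -0.03. Without the mouse block 561 genes were called. With DESeq2 978 genes were called, 79.8% of them higher, against 54.9% higher in the edgeR calls. DESeq2 gave an adjusted p to 5684 genes only, so its count and share come from a different set of genes. Leaving out mouse 3 reduced the lower calls to 726. In the matched cells, 708 of 11316 genes (6.26%) were higher and 432 (3.82%) lower, and 986 of the 987 genes called in both comparisons had the same direction. The matched sets were also split on Calb2 and so differ in it by construction. Calb2 stood at 12625, 11594, 12852 and 11362 CPM in their high and 8103, 7113, 8875 and 7192 CPM in their low cells. Glial markers summed to 3892 ± 176 CPM in the matched high and 4411 ± 109 in the matched low cells.

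The broadest pattern was in genes of oxidative phosphorylation, the chain that makes ATP in mitochondria. The shares of all genes were 12.6% higher and 10.3% lower, and 6.26% and 3.82% in matched cells. Of 75 nuclear-encoded genes of the oxidative phosphorylation list tested, 74 rose with calretinin and 0 fell, with a median log2 difference of 0.30. In matched cells 69 rose and 0 fell, with a median of 0.17. Their summed level was 72405, 78523, 73555 and 65688 CPM in the low cells of mice 1 to 4 and 84106, 90031, 89949 and 86728 CPM in the high cells. The high cells lay above the low cells in every mouse. The cytochrome oxidase subunits Cox4i1 and Cox5a rose by 0.35 ± 0.05 (SE) and 0.36 ± 0.05 on the log2 scale, with adjusted p of 2.12e-10 and 8.09e-11 by edgeR. In all cells the tricarboxylic acid cycle enzyme Mdh1 rose by 0.46 ± 0.05, and Ldhb, a lactate dehydrogenase subunit, by 0.35 ± 0.05.

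The 13 mitochondrially encoded subunits of the same complexes went the other way. All 13 were lower in calretinin-high cells, beside 10.3% of all genes, with a median log2 difference of -0.43. Of these, mt-Co3 fell by 0.43 ± 0.06 with 4 of 4 mice lower. In the cells matched on mitochondrial share, which fixes their sum, 1 was higher and 1 lower and the median was 0.00. The nuclear noncoding RNAs Malat1 and Meg3 were also lower in calretinin-high cells, by -0.26 ± 0.06 and -0.41 ± 0.05. Malat1 was lower in matched cells as well, by -0.29 with an adjusted p of 2.85e-19.

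**Figure D4:**
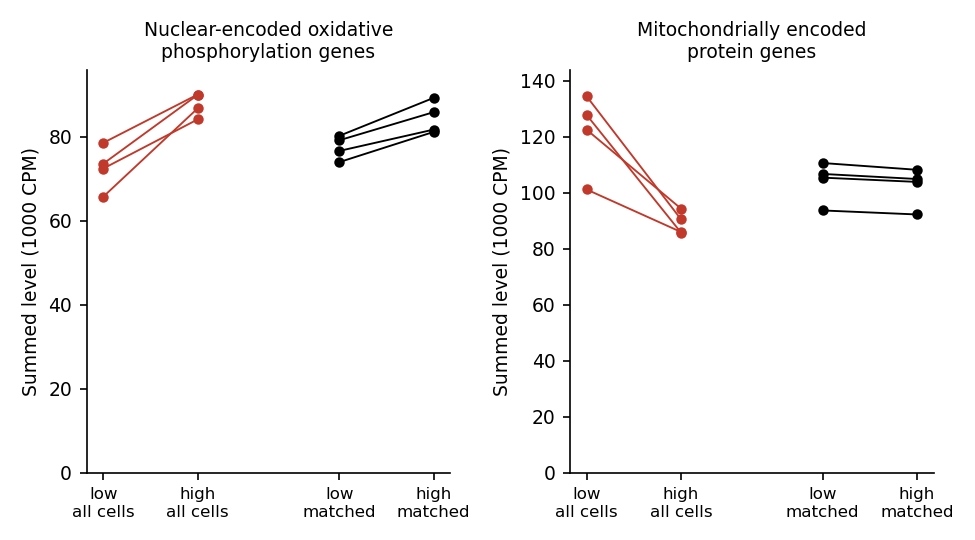
Summed level (CPM, on an axis in units of 1000) of nuclear-encoded oxidative phosphorylation genes and of mitochondrially encoded protein genes in calretinin-low and calretinin-high type IA cells; each line is 1 of 4 mice, red for all cells and black for cells matched on depth and mitochondrial share. The nuclear genes rise in every mouse in both comparisons, while the mitochondrial genes go from a mean of 121452 to 89121 CPM in all cells and from 104063 to 102266 CPM in matched cells.

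More transcription factors were lower than higher along calretinin, and most did not pass in either direction. Of 26 tested, 1 was higher and 10 lower, with a median of -0.23, beside 12.6% and 10.3% of all genes. In matched cells 1 was higher and 6 lower, beside 6.26% and 3.82%. The factor that rose was Rxrg, with 41.1, 36.3, 56.0 and 39.0 CPM in low cells and 75.5, 60.4, 68.1 and 59.1 CPM in high cells, a difference of 0.63 ± 0.08 (adjusted p = 3.14e-12). Pou4f1 stood at 11.6, 13.0, 12.4 and 10.0 CPM in low cells and 6.22, 2.88, 4.90 and 5.91 CPM in high cells, a difference of -1.33 ± 0.20 (adjusted p = 8.05e-09). High and low cells did not overlap across mice for either gene. Runx1, a factor of sensory neuron identity, fell by 0.64 ± 0.16 on the log2 scale. The early neuronal factor Ebf1 and the nuclear factor Nfia fell by 0.46 ± 0.05 and 0.42 ± 0.06. All of these kept their calls in matched cells, whereas Tshz2 did not (-0.33 in all cells, 0.07 with an adjusted p of 0.238 in matched cells).

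To show the marker that rose with calretinin beside a pair of the 15 widest lower genes, the promoter windows of Rxrg, Ntng1 and Pou4f1 were read from RefSeq (GRCm38.p6, 250 bases before to 50 after a start, 5′ to 3′ on the gene's strand). Capitals mark AGGTCA or its reverse complement TGACCT, the letters of a nuclear receptor recognition element, searched on both strands and found in 16.3% of 32851 promoter windows. The 3 windows lie at chr1:167618015-167618314 (plus strand, the second of 2 Rxrg starts), chr3:110143423-110143722 (minus strand) and chr14:104467950-104468249 (minus strand).
Rxrg: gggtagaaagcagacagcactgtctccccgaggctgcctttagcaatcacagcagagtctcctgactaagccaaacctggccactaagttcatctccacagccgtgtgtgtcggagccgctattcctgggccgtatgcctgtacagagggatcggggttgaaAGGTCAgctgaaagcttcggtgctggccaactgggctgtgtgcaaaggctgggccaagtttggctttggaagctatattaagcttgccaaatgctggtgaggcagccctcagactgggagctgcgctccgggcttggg
Ntng1: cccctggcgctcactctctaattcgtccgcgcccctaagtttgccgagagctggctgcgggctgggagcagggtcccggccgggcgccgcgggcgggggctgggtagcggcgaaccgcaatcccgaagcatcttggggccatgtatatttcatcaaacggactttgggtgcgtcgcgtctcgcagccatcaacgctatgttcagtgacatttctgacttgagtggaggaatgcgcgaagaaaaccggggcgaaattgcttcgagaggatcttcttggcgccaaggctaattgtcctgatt
Pou4f1: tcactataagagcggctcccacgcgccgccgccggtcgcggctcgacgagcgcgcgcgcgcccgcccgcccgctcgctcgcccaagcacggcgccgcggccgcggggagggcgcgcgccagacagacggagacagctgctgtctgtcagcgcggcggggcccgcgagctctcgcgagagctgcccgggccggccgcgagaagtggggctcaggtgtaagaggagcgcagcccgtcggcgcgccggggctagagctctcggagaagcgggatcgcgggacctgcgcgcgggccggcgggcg
The Rxrg window shown held the motif, while the window of the other Rxrg start and those of Ntng1 and Pou4f1 did not. Windows of further genes were mixed. A window of B3gat1, which did not pass along calretinin, held the motif. Upp1 and Kcnip4, which rose, held it at some starts only, and Kcns3, which also rose, held it at none. No link between the motif and the direction along calretinin is read from these windows. Guanine and cytosine made up 57.0% of the Rxrg window, 59.7% of the Ntng1 window and 78.3% of the Pou4f1 window. A match describes the letters only, and binding was not measured. Calb2 has no entry in the promoter table.

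Adhesion and guidance genes fell or did not pass the test. Of 29 tested, 15 were lower and 0 higher, with a median of -0.26, and in matched cells 10 were lower and 2 higher, beside the same shares of all genes. Ntng1, which encodes the axonal adhesion protein netrin-G1, stood at 35.9, 32.6, 36.7 and 28.0 CPM in low cells and 14.5, 14.6, 12.4 and 11 CPM in high cells. The sets did not overlap, and the difference was -1.31 ± 0.12 (adjusted p = 5.51e-22) and -1.17 ± 0.13 in matched cells. Ntng1 is a low gene of type IA (24.5 ± 0.998 CPM) that stood at 248 in type IB and 307 in type IC. The protocadherin gene Pcdh7 fell by 0.58 ± 0.06 on the log2 scale. Sema3e, a secreted guidance cue, did not pass in all cells (0.03 ± 0.06) and was higher in matched cells (0.25, adjusted p = 0.000859).

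The markers that define type IA did not move together along calretinin. Rxrg rose, Pcdh20 and Tmem132c were lower, and B3gat1 did not pass (-0.06 ± 0.05, adjusted p = 0.396). Pcdh20 stood at 98.9, 93.8, 86.6 and 122 CPM in low cells and 78.6, 64.8, 64.1 and 97.7 CPM in high cells, a difference of -0.39 ± 0.07 (adjusted p = 2.42e-07). High cells lay below low cells in each mouse, but the sets overlapped across mice. Tmem132c was lower by -0.38 ± 0.09 and did not keep its call in matched cells (adjusted p = 0.191). The 3 type IC markers tested, Lypd1, Runx1 and Pou4f1, were all lower in calretinin-high cells in both comparisons, Lypd1 by -0.57 ± 0.06 with 145, 116, 177 and 103 CPM in low and 94.7, 84.0, 110 and 69.3 CPM in high cells. The subtype labels were made from the same cells, and the part of cells near the border between labels in these differences was not tested.

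More potassium channel genes were lower than higher. Of 29 tested, 13 were lower, with a median of -0.21, and 6 of 27 in matched cells, beside 10.3% and 3.82% of all genes. The 3 that were higher, in both comparisons, are a share near that of all genes (12.6%, and 6.26% in matched cells). The genes that rose were Kcns3, a modifying subunit of Kv2 channels, Kcnip4, a calcium-sensing subunit of Kv4 channels, and Kcnk1. Kcns3 stood at 19.5, 16.4, 33.5 and 16.5 CPM in low cells and 30.1, 31.7, 37.1 and 33.9 CPM in high cells, a difference of 0.63 ± 0.11 (adjusted p = 4.76e-07). Kcnip4 stood at 18.1, 12.8, 33.8 and 11.5 CPM in low and 28.5, 32.1, 36.8 and 24 CPM in high cells, a difference of 0.71 ± 0.12. In both genes the low cells of mouse 3 reached the high cells of other mice. Kcna2 fell by 0.35 ± 0.05 on the log2 scale and kept its call in matched cells. The Kv3 gene Kcnc1 (-0.12) did not keep its call, at 0.05 with an adjusted p of 0.419.

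Calcium channel, sodium channel and pump, node and glutamate receptor genes also had more lower than higher calls in all cells, and fewer lower calls in matched cells. Of 13 calcium channel genes 6 were lower and 0 higher (3 lower of 12 in matched cells), with Cacna1a at -0.53 ± 0.08 and its partner Cacnb4 at -0.46 ± 0.06. Of 18 sodium channel and pump genes 7 were lower and 1 higher, and in matched cells 3 were lower and 2 higher. Of 15 node and paranode genes 8 were lower and 1 higher (4 and 0 in matched cells), among them Cntn1, the contactin of the paranode, at -0.26 ± 0.05. Of 8 glutamate receptor genes 5 were lower and 0 higher, and Gria2 (-0.55 ± 0.06) was the 1 of 7 that stayed lower in matched cells. Of 6 inhibitory and cholinergic receptor genes 1 was lower in both comparisons, the GABA-B receptor subunit Gabbr2 (-0.25 ± 0.07). These counts stand beside the 10.3% of all genes that were lower (3.82% in matched cells). The 1 lower inhibitory and cholinergic receptor gene, and the 1 lower glutamate receptor gene in matched cells, are too few to be read as a lean. Sodium channel and pump genes went both ways in matched cells.

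Presynaptic, calcium-binding and cytoskeletal lists held genes of both directions. Of 38 synaptic vesicle genes 3 were higher and 13 lower (4 and 8 in matched cells). The vesicle GTPase Rab3a rose by 0.41 ± 0.05 and beta-synuclein (Sncb) by 0.39 ± 0.05. Of 20 calcium-binding genes 6 were higher and 2 lower (6 and 3 in matched cells), and Pvalb rose by 0.28 ± 0.05, or 0.13 in matched cells. Of 30 axonal cytoskeleton genes 9 were higher and 7 lower (10 and 3 in matched cells). The tubulin-binding protein gene Stmn3 rose by 0.32 ± 0.05, Nefl rose by 0.14 ± 0.05, and Nefh did not pass (-0.03 ± 0.05). Among all genes 12.6% were higher and 10.3% lower (6.26% and 3.82% in matched cells).

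Of 13 neurotrophic signalling genes 2 were higher and 5 lower (1 and 2 in matched cells), and Ntrk2, the receptor of brain-derived neurotrophic factor, fell by 0.52 ± 0.06. Of 9 neuropeptide and granin genes 2 were higher and 1 lower (3 and 0 of 8 in matched cells), and Pcsk1n, an inhibitor of prohormone cleavage, rose by 0.23 ± 0.05. Of 13 glycan-modifying enzymes 1 was lower and 0 higher, the sulfotransferase gene Chst2 (-0.16 ± 0.06), and in matched cells 1 was lower and 1 higher, with the median going from -0.01 to 0.05. Of 29 immediate early and dissociation genes 1 was higher, the chaperone gene Hspa8 (0.22 ± 0.05), and 5 were lower, among them Jun (-0.20 ± 0.05), with the same counts in matched cells. Beside the 12.6% of all genes that were higher and 10.3% that were lower, the 2 higher neurotrophic genes and the 1 lower glycan gene are shares near those of all genes. In matched cells 6.26% of all genes were higher and 3.82% lower. Of 9 glial markers 2 were lower and 0 higher, and 5 were lower in matched cells, and their part in the other differences was not tested.

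The widest single-gene differences were mostly in rare transcripts. Among the 15 widest higher genes, Upp1, a uridine phosphorylase of pyrimidine salvage, stood at 37.3, 30.5, 67.8 and 39.0 CPM in low cells and 71.3, 66.5, 93.5 and 66.6 CPM in high cells. The difference was 0.81 ± 0.08 (adjusted p = 2.14e-20), and 0.73 in matched cells. The 15 genes of each direction were admitted only with the same direction in 4 mice, so agreement between mice was fixed by the choice. The low cells of mouse 3 reached the high cells of mice 2 and 4. Lhx1os, a long noncoding RNA, rose by 0.69 ± 0.09, and N4bp3, which encodes a neuronal adaptor protein, by 0.69 ± 0.16. Of these 15 genes 7 kept their call in matched cells: Upp1, Lhx1os, Kcns3, Kcnip4, N4bp3, Eepd1 and Zbtb8a. The other 8 (Rad51ap2, Bbc3, Cyp4x1os, Prtn3, Pced1b, Iqck, Psmb8 and Aldh1b1) did not, and Rad51ap2, the widest at 1.03 ± 0.32, rested on 27 UMIs in low and 66 in high cells. Cyp4x1os lies antisense to another gene, and reads of the pair cannot be told apart where strand was not used in counting.

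Of the 15 widest lower genes, 11 of 13 tested in matched cells kept their call. The widest was Lypd6, a relative of Lypd1 that modulates nicotinic receptors, with 8.21, 5.41, 3.46 and 6.0 CPM in low cells and 1.82, 2.12, 2.10 and 1.18 CPM in high cells. Its difference was -1.54 ± 0.31 (adjusted p = 1.38e-05) and rested on 73 and 30 UMIs. The sets did not overlap across mice, which the choice of genes by width and by the same direction in 4 mice favours. Cit, which encodes citron kinase, stood at 18.1, 24.2, 6.06 and 9.51 CPM in low and 5.71, 11, 2.10 and 3.15 CPM in high cells, a difference of -1.33 ± 0.18. Its direction in each mouse was fixed by the same choice, and mice 1 and 2 were above mice 3 and 4 in both sets. Rasgrf1, a calcium-dependent activator of Ras, fell by 1.20 ± 0.20 on the log2 scale, and Drd1, a dopamine receptor, by 1.21 ± 0.23. Ehbp1l1 (-1.36), Padi1 (-1.28), Adamts15 (-1.18), Sfrp1 (-1.14) and Tmem233 (-1.13) also kept their calls. Cdh23 and Pmel did not (adjusted p of 0.0873 and 0.0530), and Plekhd1 and Fam120c were too rare to be tested in matched cells. Without the mouse block 3 of the 15 higher and 10 of the 15 lower genes kept their calls.

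**Figure D5:**
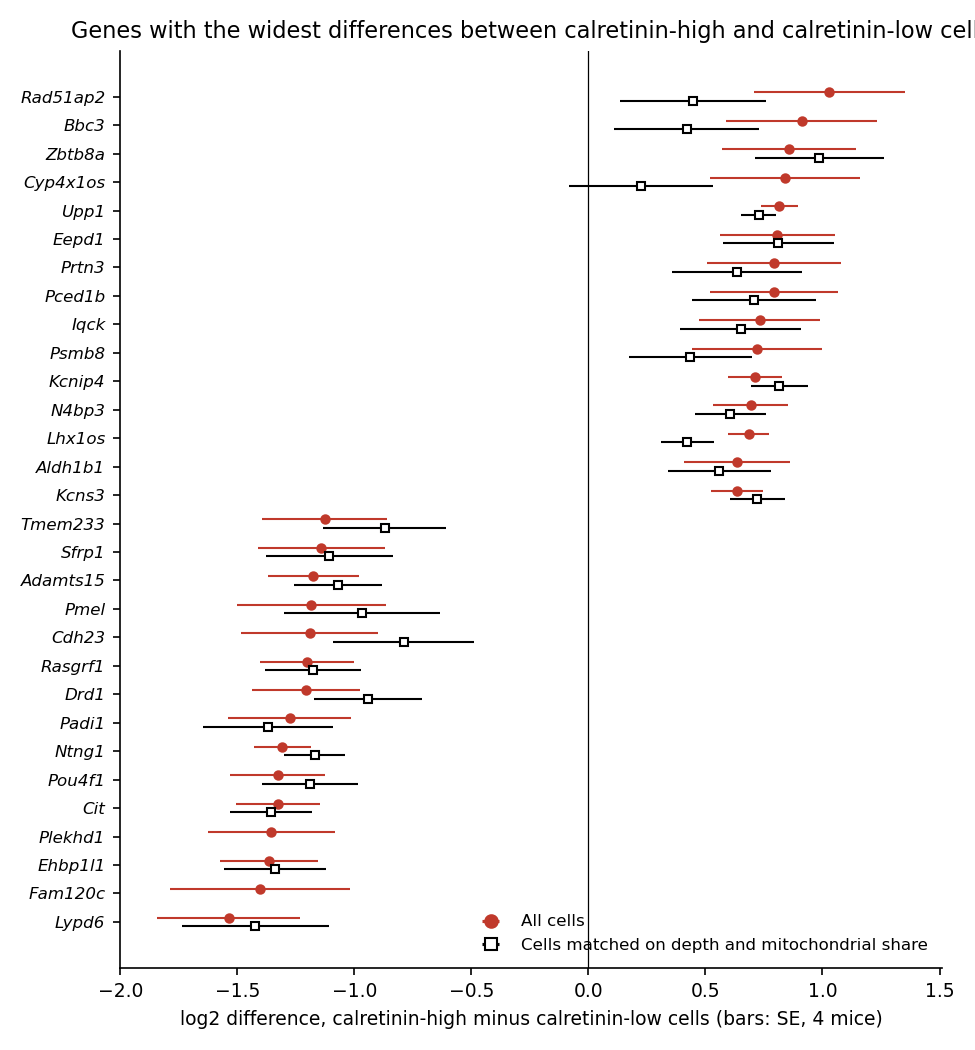
Log2 difference between calretinin-high and calretinin-low type IA cells for the 15 widest higher and 15 widest lower genes; points are edgeR estimates with SE over 4 mice, red for all cells and open squares for cells matched on depth and mitochondrial share. Lower genes lie between -1.54 and -1.13 in all cells, and 11 of the 13 tested in matched cells keep their call. Plekhd1 and Fam120c have no matched value, and Rad51ap2, Bbc3 and Cyp4x1os move toward 0 with matching.

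The same split was made in types IB and IC to test whether a difference along calretinin was larger or smaller in type IA. Calb2 is low in type IC, where the dividing value was 2 or 3 thinned UMIs and 96.1% to 98.6% of cells lay within 5 UMIs of it. In type IB the dividing value was 7 to 10 UMIs and 70.2% to 76.6% of cells lay within 5 UMIs of it, so the split sorted fewer cells clearly there than in type IA. A smaller difference in types IB and IC and the counting error of their splits cannot be told apart. The difference along calretinin itself differed between types IA and IB for 396 of 11881 genes (3.33%), and between types IA and IC for 1544 (13.0%), by an interaction term in edgeR. Without the block 2 and 127 genes were called, and in matched cells 120 and 463. Each mouse left out lowered the count against type IB, to between 219 and 255, and leaving out mouse 3 lowered that against type IC to 932.

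For the oxidative phosphorylation genes, the difference along calretinin was larger in type IA than in type IB for 56 of 75 genes, beside 2.37% of all genes, with median differences of 0.31 in type IA and 0.11 in type IB. In matched cells this held for 15 of 75, beside 0.597% of all genes. Ntng1 and Upp1 were named for their wide differences in type IA, so their values in the other subtypes are given as a description. For Ntng1 the difference was -1.30 in type IA, beside -0.35 (IB) and 0.01 (IC), and for Upp1 it was 0.82, beside 0.31 and 0.07. B3gat1 rose with calretinin in type IB by 0.82 but not in type IA, and the 2 differed by -0.88 (adjusted p = 1.81e-07 by edgeR). B3gat1 and Calb2 are both markers of type IA, and the labels were made from these same cells. The B3gat1 values are therefore a description, and the part of cells near the border between labels in them was not tested. For Rxrg no difference between subtypes passed the test, and its differences were 0.39 in type IB and 0.43 in type IC.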

How the data were processed

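The deposited values are whole-number UMI counts per gene and cell, 1 table per mouse, made by the authors, with Cell Ranger 2.0.1, Seurat 1.4 and the mm10 build named in the submitters' processing notes. Nothing used here states the filters, the handling of doublets or how labels were assigned. The deposited normalized table was not used. Cells were taken by their deposited subtype label. Members, lists and tests were chosen with earlier results of these data known.

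UMIs were summed per mouse, and CPM, detection and variation were computed with Python 3.11.15, numpy 2.4.6 and scipy 1.17.1, with cells thinned to 4000 UMIs where detection or variation was compared. Intervals and SDs cover counting error and the 4 mice only. Calretinin-high and calretinin-low sums were fitted with edgeR 4.0.16 (R 4.3.3; TMM, filterByExpr, glmQLFit, glmQLFTest), with an adjusted p threshold of 0.05. The mouse was a block because both sums of a pair come from the same animal, and their deviations from the group means correlated at 0.303 to 0.369 within mice. Values across mice were negative, which taking deviations from the means of the same 4 mice favours. DESeq2 1.42.0 was an alternative, and the fits were tested on simulated data.

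Named genes were the 30 highest, the 20 most and 10 least variable, the 15 widest differences in each direction (at least 20 UMIs in the higher set, same direction in 4 mice), the 10 most uneven between mice, up to 6 of each list, and the cell type markers, leaving out mitochondrially encoded, ribosomal protein, Gm and Rik genes except as list members. A few of these genes are not reported here. Coordinates come from GENCODE M21 on GRCm38, the assembly of mm10. A few genes, such as Calm2 and Ppia, have near-identical copies that counting may split.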

Additional observations from a re-analysis of the deposited data

Results flagged for a closer look

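Differences along calretinin were compared between subtypes by an interaction term for the 30 widest genes and the 4 other type IA markers. The 30 were chosen for their width in type IA, which favours a difference from the other subtypes, so the counts are descriptions and nothing is read from them. Against type IB, 11 of the 34 passed an adjusted p of 0.05 in edgeR, beside 3.33% of all genes. The log2 difference in type IA minus that in type IB was below 0 for Padi1 (-1.90), Lypd6 (-1.14), Rasgrf1 (-1.04), Drd1 (-1.02), Ntng1 (-0.94), B3gat1 (-0.88), Cit (-0.76) and Pou4f1 (-0.74). It was above 0 for Lhx1os (0.40), Upp1 (0.52) and Cyp4x1os (1.56). In cells matched on depth and mitochondrial share 6 of the 11 passed. Against type IC, 19 of the 34 passed, beside 13.0% of all genes, and 11 of the 18 tested in matched cells passed there. The widest were Tmem233 (-2.39), Plekhd1 (-2.16), Pmel (-1.71), Lypd6 (-1.64) and Padi1 (-1.47). Values were also below 0 for Cit (-1.32), Ntng1 (-1.31), Adamts15 (-1.22), Cdh23 (-1.19), Pou4f1 (-1.15), Ehbp1l1 (-1.10), Pcdh20 (-0.97), Rasgrf1 (-0.92) and Drd1 (-0.91). They were above 0 for Kcns3 (0.49), Lhx1os (0.72), Upp1 (0.75), Psmb8 (1.33) and Bbc3 (1.35).

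One mouse stood apart from the other 3 in type IA level for 10 of 73 genes examined, by the gap to its nearest neighbour as a share of the range. Of these 10, 6 are among the genes chosen as most uneven between mice, which favours such a gap. Of the other 63 genes examined, 4 met the rule, which chance meets in about 1 of 20 groups. In mouse 4, S100a8 (229 CPM), S100a9 (163), Bglap (115), Camp (86.2) and Ngp (77.2) were high, and Stmn3, a neuronal tubulin-binding protein gene, was low (2000.04 CPM). In mouse 1, Isg15 (66.4 CPM) was high and Cox6c (2972 CPM) low. In mouse 2, Snap25 (3936 CPM) was low and Myl6, a myosin light chain gene (846 CPM), high.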

How the results depend on the processing

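The count of genes called along calretinin in type IA (2617 with edgeR, 1437 higher and 1180 lower) was 2376 to 3036 with another scaling, no filter on low counts, the outer parts of the Calb2 range only, a split on unthinned CPM, or without cells holding glial Fabp7. It fell to 561 (301 higher, 260 lower) with no replicate block, 978 (780 and 198) with DESeq2, 1538 (933 and 605) with thinned UMIs summed, 1026 (576 and 450) in cells above the median depth, and 1140 (708 and 432) in cells matched on depth and mitochondrial share. Leaving out each mouse gave 1826 to 2228 genes, with 1100 to 1315 higher and 726 to 913 lower. DESeq2 gave an adjusted p to 5684 genes, against 11416 in edgeR, so its counts cover fewer genes. The pairing by mouse comes from the design.

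The interaction counts against types IC and IB (1544 and 396) became 127 and 2 with no replicate block, 730 and 262 with DESeq2, 693 and 141 with thinned UMIs, and 463 and 120 in matched cells. Leaving out each mouse gave 932 to 1233 and 219 to 255. DESeq2 gave an adjusted p to 3353 and 1257 genes, against 11881 in edgeR, so its interaction counts cover fewer genes.

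In matched cells, Kcnc1 (0.049), Tshz2 (0.069), mt-Atp6 (0.027), mt-Co2 (0.0034), mt-Co3 (0.0057), mt-Cytb (0.0064) and mt-Nd1 (0.067) turned from lower to higher, which for the mitochondrially encoded genes follows from matching on their share. Kcnc1 also turned in cells above the median depth (0.043). For other genes the cause was not tested. Shares of cells with a UMI depend on depth: at 8000 UMIs or unthinned most rose. At 8000 UMIs the excess squared coefficient of variation moved by more than 1 SD over mice for 62 genes and by less for 108. Levels as a mean over cells moved by more than 1 SD for 55 genes and by less for 186. Without the type IA cells holding at least 3 Fabp7 UMIs (14 of 2384) levels and variation moved by less than 1 SD. So few cells could hardly move a mean, and the part of glial RNA in the cells kept was not tested. The comparisons with Fabp7 cells left out and with matched cells were added after the data were seen. With 4 mice, rare genes rest on few UMIs.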
